A study of Mus musculus with 24 samples.

Results

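The locus of microRNA-142 on mouse chromosome 11 is described here through 8 rows of a read count table of 24091 genes: the microRNA genes Mir142 and Mir142b and the neighbouring genes Mtmr4, Hsf5, Rnf43, Supt4a, Tspoap1 and Mks1. The genes were selected on their position beside Mir142 and on results of these libraries with and without miR-142, so their levels in those comparisons are given as a description with no test. The libraries were bulk RNA-seq of bone marrow Lin-Sca-1+c-Kit+ cells (LSKs), the fraction that holds stem and multipotent progenitor cells, from 24 B6 mice, divided over 4 groups of 6 with 3 females and 3 males per group. WT mice carried neither change, miR-142 KO mice lacked miR-142 (Mir142 KO, miR-142-/-), CP CML mice carried BCR-ABL with miR-142 intact (BCR-ABL+, miR-142+/+), and BC CML mice carried BCR-ABL without miR-142 (Mir142 KO BCR-ABL+). BCR-ABL came from the SCLtTA/BCR-ABL transgene, which is driven by the SCL promoter and switched on by tetracycline withdrawal, so that it is expressed in the cells where that promoter is active. CP and BC stand for the chronic phase and blast crisis of chronic myelogenous leukemia. These names follow genotype, and the study sorted these cells earlier after induction than the time it gives for first circulating blasts. The miR-142-/- genotype was that of the whole mouse, and ages were not given in the sources used here.

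MicroRNAs are cut from a hairpin transcript and, loaded on Argonaute proteins, repress mRNAs that pair with their seed (bases 2 to 8). The miR-142 hairpin is known for expression across the blood lineages, and both of its arms give a mature microRNA. Its mouse gene lies between Supt4a and Tspoap1, and further along the chromosome stands Mpo, the gene of the neutrophil enzyme myeloperoxidase. The sequences of both microRNA genes are shown because they set what each row of the table can count. They were taken from RefSeq for GRCm38.p6, the assembly also named mm10, with both microRNA rows matched. Capitals mark the mature microRNAs in the hairpins and the seeds in the mature microRNAs.
Mir142 hairpin (plus strand): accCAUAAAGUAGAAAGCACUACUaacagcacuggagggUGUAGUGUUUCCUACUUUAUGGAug
mmu-miR-142a-5p: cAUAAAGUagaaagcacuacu
mmu-miR-142a-3p: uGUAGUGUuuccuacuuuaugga
Mir142b hairpin (minus strand): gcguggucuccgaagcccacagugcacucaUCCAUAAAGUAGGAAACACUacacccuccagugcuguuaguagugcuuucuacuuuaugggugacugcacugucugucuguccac
mmu-miR-142b: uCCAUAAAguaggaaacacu
The Mir142 hairpin of 64 bases (chr11:87756864-87756927, mm10) lay wholly inside the reverse complement of the Mir142b hairpin of 115 bases (chr11:87756841-87756955). All 20 bases of mature miR-142b paired without a gap with miR-142a-3p, and miR-142b shared a run of 10 bases, CAUAAAGUAG, with miR-142a-5p. The 3 mature microRNAs had 3 different seeds. The sources used here do not state whether counting used strand. A read on Mir142 also overlaps Mir142b, so that only strand separates both rows. Over the 12 libraries with miR-142 the rows held 1259 counts (Mir142) and 178 counts (Mir142b). In the GENCODE M21 annotation Mir142 lay in the intron of a host transcript, Mir142hg (chr11:87755577-87757270), which was not among the rows used here.

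Along the chromosome and in mm10 coordinates of the table, Mtmr4 (chr11:87592217-87616296), Hsf5 (chr11:87617164-87659542), Rnf43 (chr11:87662722-87735539) and Supt4a (chr11:87737565-87743617) lay on the lower side of Mir142, all on the plus strand. Supt4a ended 13.2 kb before the Mir142 hairpin. On the higher side and also on the plus strand, Tspoap1 (chr11:87760541-87785928) began 3.61 kb after the end of the hairpin in the table and 1.27 kb after it in the RefSeq annotation. Mks1 (chr11:87853225-87863679) began 96.3 kb after it, beyond Mpo.

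Library totals ranged from 16267965 to 24687077 counts, 13520 genes passed edgeR's filter on low counts, and levels are TMM-scaled CPM with SD over 6 mice. Genes that define the sort were present in every library, with the summed level of Ly6a (Sca-1), Kit, Cd34, Cd48 and Flt3 between 2281 and 3649 CPM. Genes of other cell types moved between groups. The median summed level of 6 mast cell or basophil genes was 7065 CPM in BC CML, 2179 in CP CML, 1033 in miR-142 KO and 395 in WT LSKs, and that of 10 genes of neutrophil-primed progenitors was 10583, 8061, 9331 and 3496 CPM in the same order. The summed level of 9 B cell genes was 68.3 to 948 CPM in WT and 163 to 733 in CP CML, against 27.0 to 44.9 in miR-142 KO and 28.5 to 39.9 in BC CML, so that it was lower in every library without miR-142. Of these genes 8 were tested. In miR-142 KO against WT 1 fell (Jchain, the joining chain of antibodies), beside 16.4% of all tested genes. In BC CML against CP CML 2 fell (Jchain and Cd79a), beside 17.6% of all tested genes. Replicate 3 of miR-142 KO stood below its group in the neutrophil-primed genes, at 5269 CPM against 8808 to 10277 CPM in the other 5 libraries. In bulk samples, fewer cells of a type and less RNA per cell cannot be told apart.

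Tspoap1 was the gene of the locus that stood highest without miR-142. It encodes TSPO associated protein 1, also called RIM-binding protein 1, a large scaffold that binds the mitochondrial protein TSPO and, at synapses, RIM and calcium channels. Its level ran from 18.3 to 36.1 CPM (median 23.1) in WT and from 39.6 to 59.7 CPM (median 46.6) in CP CML LSKs. Without miR-142 it ran from 3894 to 5776 CPM (median 4838) in miR-142 KO and from 3940 to 5257 CPM (median 4369) in BC CML LSKs. The 12 libraries without miR-142 thus all lay far above the 12 with it, with 83574 to 130709 counts per library on one side and 425 to 1400 on the other. The means were 25.7 ± 7.60 CPM (WT), 47.8 ± 6.83 CPM (CP CML), 4832 ± 605 CPM (miR-142 KO) and 4442 ± 530 CPM (BC CML; SD, n = 6 each). The fitted log2 fold change was 7.55 (SE 0.19) in miR-142 KO against WT, a 188-fold difference, and 6.54 (SE 0.18) in BC CML against CP CML, a 93.0-fold difference. The sums of the B cell genes split the libraries in the same way and in the opposite direction. Those of 10 mature neutrophil genes split them in the direction of Tspoap1. They were 197 to 272 CPM in WT and 208 to 301 in CP CML. Without miR-142 they were 307 to 538 CPM in miR-142 KO and 334 to 395 in BC CML. Of the 10, 7 rose and 0 fell in miR-142 KO against WT (19.9% and 16.4% of all tested genes). In BC CML against CP CML 2 rose and 3 fell (20.4% and 17.6%). The part of either list in the Tspoap1 difference was not tested.

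By mean CPM, Tspoap1 ranked 7338 of 13520 tested genes in WT, 5300 in CP CML, and 1 in both groups without miR-142. Per kilobase of its 8.55 kb length, as the table gives it, its level was 565 in miR-142 KO and 519 CPM per kb in BC CML, which ranked 31 and 44. In WT it was 3.004 CPM per kb, rank 9849. Tspoap1 took 0.372% to 0.576% of all counts of a library without miR-142 and 0.00193% to 0.00596% with it. Its log2 fold change was the second of all tested genes in BC CML against CP CML, after Shank2, and the third in miR-142 KO against WT, after Ctnna2 and Moxd1. Those 3 genes were low, with mean levels of 1.31, 2.26 and 3.21 CPM in the higher group.

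**Figure D1:**
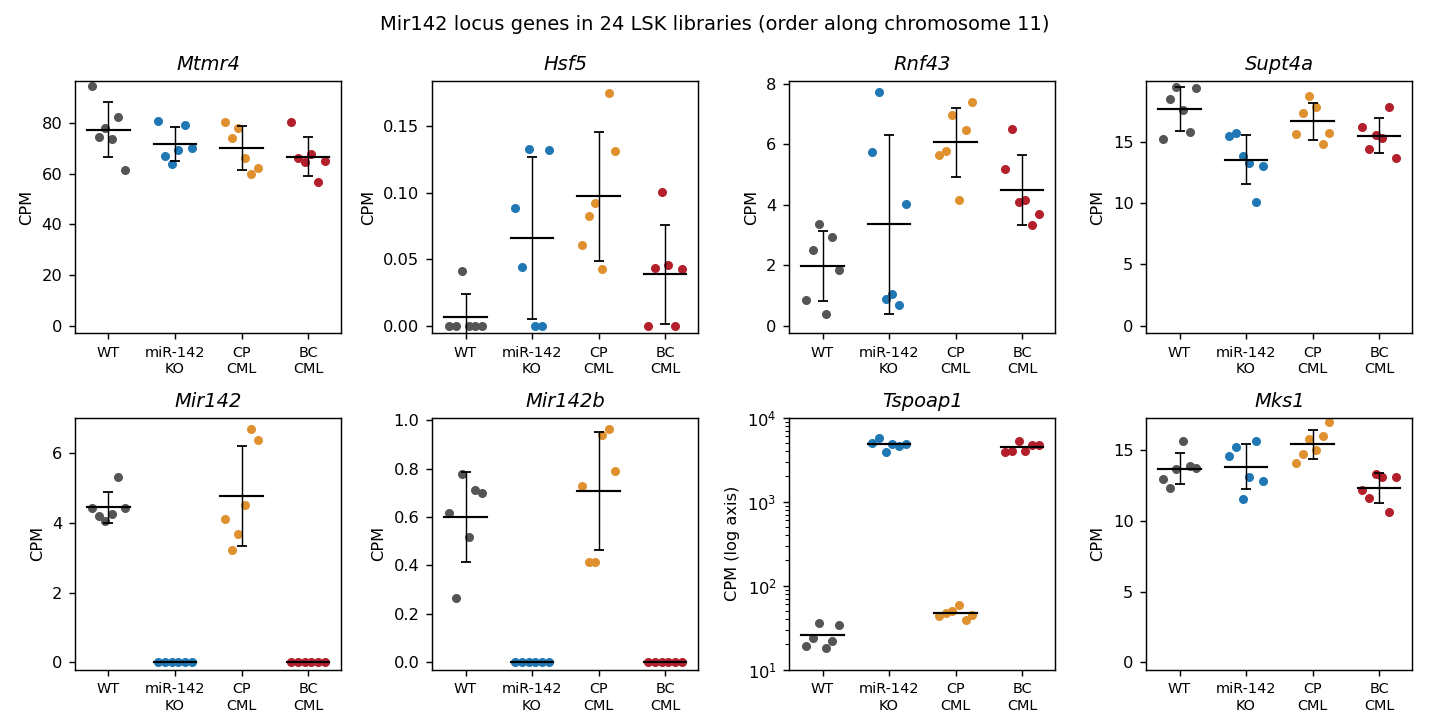
Level of each of the 8 locus genes (CPM; log axis for Tspoap1, linear from 0 for the others) in 24 LSK libraries by group, in order along the chromosome; points are libraries, long bars group means and error bars SD (n = 6; none drawn for Tspoap1). Mir142 and Mir142b sit at 0 in the 12 libraries without miR-142, where Tspoap1 sits between 3894 and 5776 CPM.

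Mir142 itself, the targeted gene, was counted in every library with miR-142 and in none without it. WT libraries held 94 to 127 counts (median 100), or 4.45 ± 0.45 CPM, and CP CML libraries 68 to 153 counts (median 93), or 4.77 ± 1.44 CPM (SD, n = 6 each). All 12 libraries of miR-142 KO and BC CML mice were at 0. A count of 0 allows up to 3 counts per library, counting error only, so Mir142 was at least 34.1-fold lower without miR-142 in normal LSKs and at least 35.2-fold lower in those with BCR-ABL. These libraries measured mRNA, so the counts are not levels of the mature microRNAs, which are shorter than the reads.

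Mir142b, on the opposite strand, held 6 to 19 counts in WT (median 15.5) and 9 to 22 in CP CML libraries (median 15), and was at 0 in the other 12. By the same floor it was at least 4.595-fold lower in normal and at least 5.22-fold lower in BCR-ABL LSKs without miR-142. Its counts made up 6% to 17.2% of the sum of both microRNA rows, and 12.4% over the 12 libraries (178 counts, against 1259 of Mir142). Of 1052 rows whose symbol starts with Mir and a digit, 551 were at 0 in all 24 libraries and 36 were tested, and Mir142 ranked 5 of them by counts in WT. The 5 with the highest mean counts over all libraries were Mir6236, Mir17hg, Mir703, Mir3064 and Mir99ahg. Of these, the host genes Mir17hg and Mir99ahg were lower both in BC CML against CP CML (log2 fold change -0.74, SE 0.17, adjusted p = 0.001291, and -1.20, SE 0.35, adjusted p = 0.009317) and in miR-142 KO against WT (-0.55, SE 0.17, adjusted p = 0.01223, and -1.14, SE 0.34, adjusted p = 0.01094).

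Among the other members on the lower side of Mir142, none approached the difference of Tspoap1. Supt4a, the nearest, encodes the small subunit of DSIF, which with Supt5 controls elongation by RNA polymerase II. Its level ran from 15.2 to 19.5 CPM in WT (median 18.1) and 10.1 to 15.7 in miR-142 KO (13.5), with CP CML at 14.9 to 18.7 (16.5) and BC CML at 13.7 to 17.9 (15.4). The ranges overlapped in every pair of these groups that was compared. The log2 fold change of Supt4a was -0.38 (SE 0.10) in miR-142 KO against WT and -0.11 (SE 0.10) in BC CML against CP CML.

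Rnf43 encodes a transmembrane E3 ubiquitin ligase that removes Frizzled receptors from the cell surface and is itself checked by R-spondins. Its level was 0.388 to 3.36 CPM in WT (median 2.17) and 4.18 to 7.40 in CP CML (6.12), while miR-142 KO held 0.698 to 7.73 (2.54) and BC CML 3.32 to 6.52 CPM (4.13). The spread within miR-142 KO was wide, with 17, 20 and 25 counts in replicates 5, 3 and 4 and 91, 130 and 175 counts in replicates 6, 1 and 2. The log2 fold change was 0.76 (SE 0.49) in miR-142 KO against WT and -0.43 (SE 0.47) in BC CML against CP CML, and the groups overlapped in both.

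Hsf5, a heat shock factor family member known for its role in spermatogenesis, was close to absent, with 0 to 4 counts per library, and did not pass the filter on low counts. Mtmr4, a myotubularin that dephosphorylates phosphatidylinositol 3-phosphate on endosomes, varied little between groups. Its means were 77.4 ± 10.98 CPM in WT and 70.2 ± 8.53 in CP CML, and 71.8 ± 6.85 in miR-142 KO and 66.8 ± 7.74 in BC CML (SD, n = 6 each). Its log2 fold change was -0.11 (SE 0.09) in miR-142 KO against WT and -0.07 (SE 0.09) in BC CML against CP CML.

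Mks1, on the higher side beyond Tspoap1 and Mpo, encodes a protein of the ciliary transition zone that is mutated in Meckel syndrome. Its level was 14.1 to 17.0 CPM in CP CML (median 15.4) and 10.6 to 13.3 CPM in BC CML (12.6), with no overlap, and the log2 fold change was -0.32 (SE 0.08). In normal LSKs the ranges overlapped, 12.3 to 15.6 CPM in WT and 11.5 to 15.6 CPM in miR-142 KO, with a log2 fold change of 0.01 (SE 0.08).

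**Figure D2:**
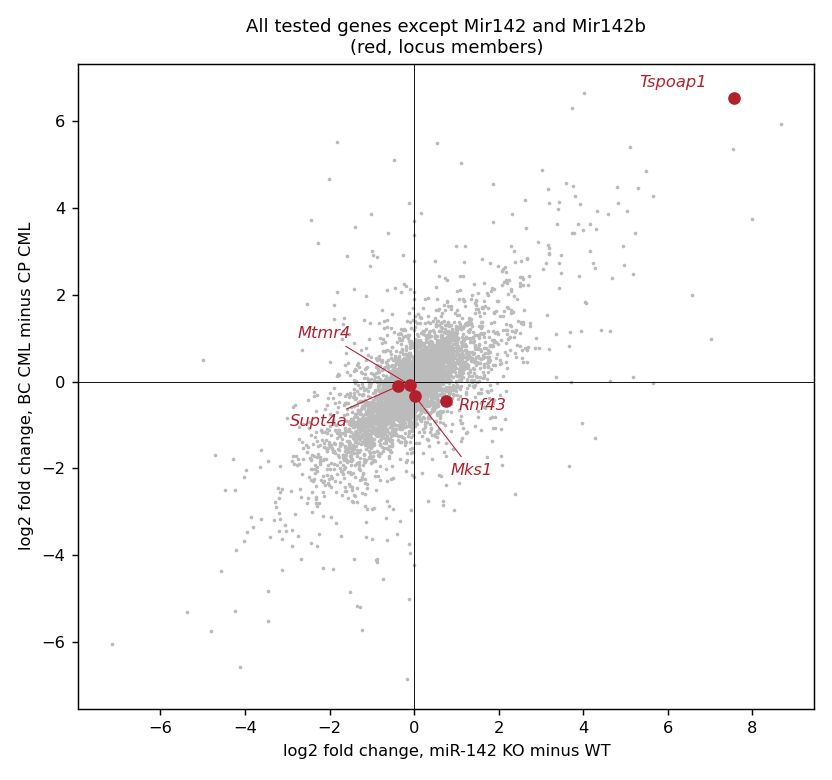
Log2 fold change of each tested gene without Mir142 and Mir142b in miR-142 KO against WT (x axis) and in BC CML against CP CML (y axis); grey points are genes and red points the locus members. Tspoap1 sits at 7.55 and 6.54, and the other 4 members sit within 0.76 of 0 on both axes.

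The comparisons with and without BCR-ABL ask what the oncogene did to the same genes. The members were not chosen on these comparisons, but they were chosen with earlier results of the same libraries known, so the tests are not independent of the choice. With miR-142 present, 2 of the 7 tested members differed between CP CML and WT LSKs, beside 45.4% of all tested genes, and both were higher (22.5% of all tested genes were higher and 22.9% lower). Both also had groups that did not overlap, as had 21.8% of all tested genes. Tspoap1 was 1.86-fold higher in CP CML (log2 fold change 0.89, SE 0.14, adjusted p = 4.101e-05). The WT libraries with the highest Tspoap1, replicates 3 and 6 at 36.1 and 34.1 CPM, also held the highest summed level of the 10 neutrophil-primed genes in WT, 6596 and 4189 CPM. In CP CML the highest Tspoap1 library, replicate 4 at 59.7 CPM, had the highest sum of its group, 10186 CPM. Without miR-142 the library highest in Tspoap1 was not the one highest in the sum. In BC CML the highest Tspoap1 library, replicate 3 at 5257 CPM, had the lowest sum of its group, 8706 CPM. In miR-142 KO it was replicate 2 at 5776 CPM, with a sum of 9053 CPM where replicate 1 had 10277. Replicate 3 of miR-142 KO was the lowest of its group in both, at 3894 CPM of Tspoap1 and a sum of 5269 CPM. The 10 genes include Mpo, which begins just past Tspoap1. Of these 10 genes, 8 rose in CP CML against WT, beside 22.5% of all tested genes, and their part in the Tspoap1 difference was not tested.

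Rnf43 was 3.06-fold higher in CP CML than in WT (log2 fold change 1.62, SE 0.49, adjusted p = 0.009408). The summed level of 6 mast cell or basophil genes was also higher in CP CML, and it moved with Rnf43 within WT and miR-142 KO. WT replicates 4 and 1, with 0.388 and 0.862 CPM of Rnf43, had sums of 80.5 and 90.9 CPM, and the other WT libraries, with 1.84 to 3.36 CPM of Rnf43, had sums of 365 to 570 CPM. All CP CML libraries had sums from 1486 to 2918 CPM, and within this group the order differed. Its replicates 6 and 3, highest in Rnf43 at 7.40 and 6.97 CPM, had sums of 2389 and 1969 CPM. Replicate 2 had the highest sum at 5.78 CPM of Rnf43. As in WT, the miR-142 KO replicates low in Rnf43 (3, 4 and 5) had sums of 224 to 660 CPM. Those high in it (1, 2 and 6) had 1405 to 2610 CPM. BC CML libraries had the highest sums, 4204 to 8952 CPM, with Rnf43 no higher than 6.52 CPM. Of the 6 genes, all detected in each group, 4 rose in CP CML against WT, beside 22.5% of all tested genes. Among them was Cpa3, the mast cell carboxypeptidase (log2 fold change 3.84, SE 0.32, adjusted p = 5.190e-09). The part of the 6 genes in the Rnf43 difference was not tested.

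**Figure D3:**
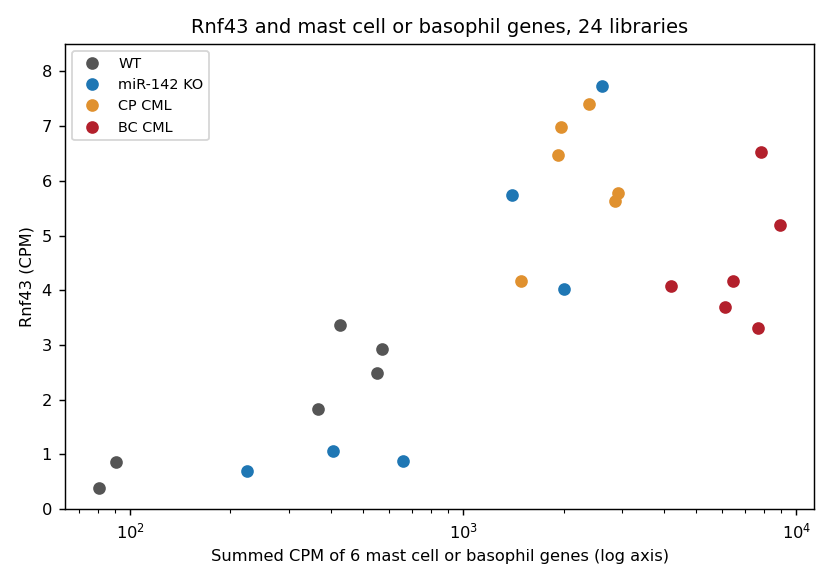
Rnf43 level (CPM, linear axis) against the summed level of 6 mast cell or basophil genes (CPM, log axis) in each of 24 libraries, coloured by group. The 3 miR-142 KO libraries with sums of 224 to 660 CPM lie at 0.698 to 1.06 CPM of Rnf43, and the BC CML libraries lie farthest to the right, at 3.32 to 6.52 CPM.

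Mir142 and Mir142b did not pass the test between CP CML and WT. The log2 fold change was 0.10 (95% interval -0.27 to 0.48, adjusted p = 0.6839) for Mir142 and 0.24 (-0.38 to 0.85, adjusted p = 0.5637) for Mir142b. In CP CML the 3 females held 68, 78 and 80 counts of Mir142 and the 3 males 106, 153 and 146, with means of 3.68 and 5.87 CPM. In WT the means were 4.22 CPM in females and 4.67 CPM in males, and no difference between sexes was tested. Mks1 (log2 fold change 0.17, SE 0.08, adjusted p = 0.08226), Supt4a (-0.08, SE 0.10, adjusted p = 0.4938) and Mtmr4 (-0.14, SE 0.09, adjusted p = 0.2253) did not pass either.

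Without miR-142, none of the 5 members that could be compared passed the edgeR test between BC CML and miR-142 KO LSKs, beside 39.6% of all tested genes (20.3% higher and 19.3% lower in BC CML). No member reached an unadjusted p under 0.05 none passed with edgeR's likelihood ratio test or DESeq2, and none had groups that did not overlap, as 10.6% of all tested genes had. Tspoap1 had a log2 fold change of -0.12 (95% interval -0.39 to 0.15, adjusted p = 0.5122). Mks1 was at -0.17 (SE 0.08, adjusted p = 0.1038), Supt4a at 0.19 (SE 0.10, adjusted p = 0.1089), Mtmr4 at -0.11 (SE 0.09, adjusted p = 0.3919) and Rnf43 at 0.42 (SE 0.47, adjusted p = 0.4996). Without replicate 3 of miR-142 KO, Mks1 passed, at -0.22 (adjusted p = 0.02113). The BCR-ABL log2 fold change of Tspoap1 without miR-142 minus that with it was -1.02 (SE 0.20). For Mks1 this difference was -0.34 (SE 0.11) and for Rnf43 -1.19 (SE 0.67). The same value separates both comparisons of miR-142 loss, whose results entered the choice of members, so it is given for members without a test. Of all tested genes, 3.99% passed the test of this difference.

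**Figure D4:**
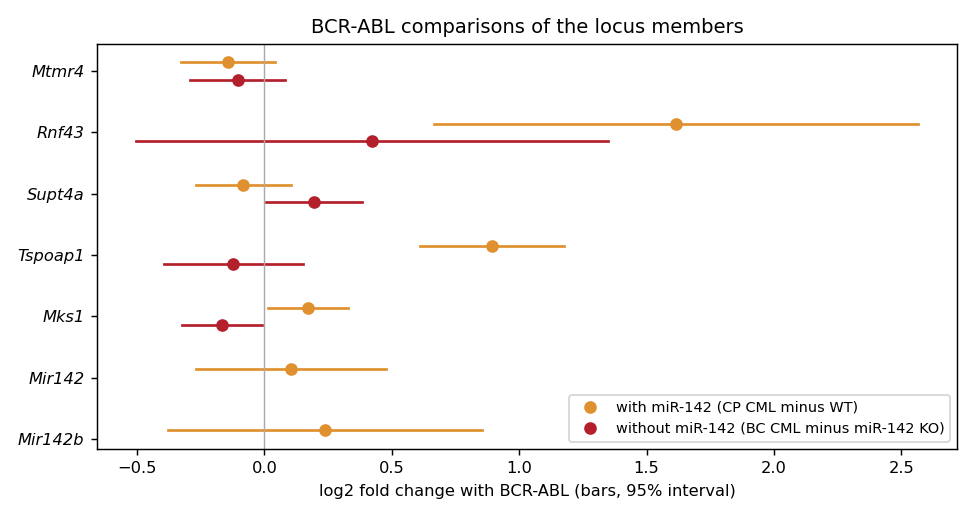
Log2 fold change with BCR-ABL (x axis; points, with 95% intervals as bars) of 7 locus genes in mice with miR-142 (orange, CP CML against WT) and without it (red, BC CML against miR-142 KO; Mir142 and Mir142b are at 0 there and have no value). Tspoap1 sits at 0.89 with miR-142 and -0.12 without it, and Rnf43 has the widest intervals.

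In the order of the group means, Tspoap1 ran miR-142 KO, BC CML, CP CML and WT, and of these neighbours the ranges overlapped for the first pair alone. Rnf43 ran CP CML, BC CML, miR-142 KO and WT, and each pair of neighbours overlapped, as did those of Supt4a (WT, CP CML, BC CML and miR-142 KO), Mtmr4 (WT first, then miR-142 KO, CP CML, last BC CML) and Mks1 (CP CML, miR-142 KO, WT and BC CML). On a scale per kilobase in WT LSKs, Mir142 stood at 70.6, Supt4a at 19.3, Mtmr4 at 13.5, Mir142b at 5.25, Mks1 at 3.70, Tspoap1 at 3.004 and Rnf43 at 0.311 CPM per kb. The value of Mir142 rests on a row of 0.063 kb that is shorter than 1 read.

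Sites that pair with the 3 seeds were counted in the longest annotated 3' UTR of each gene (GENCODE M21, 12645 tested genes with a UTR), on the transcript strand. ACACTAC, the complement of the miR-142a-3p seed, was in the 3' UTR of 6.97% of these genes, ACTTTAT (miR-142a-5p) in 15.8% and TTTATGG (miR-142b) in 12.7%. None of the 3 was in the 3' UTR of Tspoap1 (1217 bases), Supt4a (307), Rnf43 (1343), Hsf5 (2178), Mtmr4 (2052) or Mks1 (781). ACTTTAT and TTTATGG share the letters TTTAT.

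The window of 1 Mb on each side of Mir142 held 30 other rows, of which 22 were tested. In BC CML against CP CML, 9 of the 22 (40.9%) passed, beside the 38.0% of all tested genes, with 5 higher (20.4% of all) and 4 lower (17.6% of all). In miR-142 KO against WT, 8 of 22 (36.4%) passed, beside 36.3%, with 5 higher (19.9% of all) and 3 lower (16.4% of all). Both shares were near those of all genes. The groups of 6 did not overlap for 5 and 4 of the 22, beside 20.7% and 14.5% of all tested genes. In CP CML against WT 13 of 22 passed (59.1%, beside 45.4% of all), and in BC CML against miR-142 KO 10 of 22 (45.5%, beside 39.6%).

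Of these genes, 5 passed in both comparisons of miR-142 loss, each in the same direction in both. The share of all tested genes that did so was not counted. Ppm1e, a protein phosphatase that lies 398 kb before Mir142, was higher in BC CML (17.6 ± 3.27 against 6.66 ± 1.47 CPM, log2 fold change 1.41, SE 0.16, adjusted p = 6.377e-07) and in miR-142 KO (0.54, SE 0.16, adjusted p = 0.01076), and the difference between both effects passed (0.86, SE 0.23, adjusted p = 0.03288). Ypel2, which lies 763 kb before Mir142, was also higher in both (0.65, SE 0.13, adjusted p = 0.0004445, and 0.53, SE 0.13, adjusted p = 0.002832). Msi2, the RNA-binding protein Musashi-2, 582 kb after Mir142, was lower in both (-0.46, SE 0.10, adjusted p = 0.001309, and -0.67, SE 0.10, adjusted p = 2.476e-05). The unnamed transcripts 0610039H22Rik, inside Msi2 on the other strand, and C030037D09Rik, which begins just past its start, were lower in both as well, by 0.98 and 0.65 on the log2 scale in BC CML (adjusted p = 0.01429 and 0.01354). Reads of 0610039H22Rik and Msi2 cannot be told apart without strand. Ypel2 and Msi2 each held 1 ACACTAC in the 3' UTR, and Ppm1e held none.

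On the lower side, the side of Supt4a, Sept4, Tex14 and 1110028F11Rik did not pass in either comparison of miR-142 loss, whereas Rad51c (0.41, SE 0.12, adjusted p = 0.008817) and Trim37 (0.28, SE 0.06, adjusted p = 0.0006428) were higher in BC CML than in CP CML. In miR-142 KO against WT they were at 0.27 (SE 0.12, adjusted p = 0.07286) and 0.03 (SE 0.06, adjusted p = 0.7433), and neither passed the test of the difference between both effects. The transcript 1110028F11Rik lies within Rnf43 on the same strand, so their reads are uncertain. It was higher in CP CML than in WT (1.48, SE 0.37, adjusted p = 0.00259) and in BC CML than in miR-142 KO (1.02, SE 0.36, adjusted p = 0.02652).

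On the higher side, Mpo begins 36.9 kb after Mir142, just past Tspoap1. It rose in miR-142 KO against WT (4122 ± 1361 against 1926 ± 996 CPM, log2 fold change 1.10, SE 0.28, adjusted p = 0.003283), and stood at 3950 ± 708 in BC CML and 4209 ± 1013 CPM in CP CML (-0.09, SE 0.27, adjusted p = 0.8177). Epx, the eosinophil peroxidase next to Mks1, was lower in BC CML compared with CP CML (29.0 ± 18.0 against 227 ± 111 CPM, log2 fold change -2.97, SE 0.76, adjusted p = 0.003496). In miR-142 KO against WT it was at 0.94 (SE 0.70, adjusted p = 0.3057), and the difference between both effects passed (-3.91, SE 1.03, adjusted p = 0.03156). Srsf1, a splicing factor, was higher in BC CML (0.22, SE 0.08, adjusted p = 0.03005), and Dynll2 and Vezf1 passed in neither comparison. Cuedc1 was higher in miR-142 KO (0.39, SE 0.13, adjusted p = 0.02389). In BC CML against CP CML it was at -0.28 (SE 0.13, adjusted p = 0.09452), and the difference between both effects passed (-0.67, SE 0.19, adjusted p = 0.04148).

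**Figure D5:**
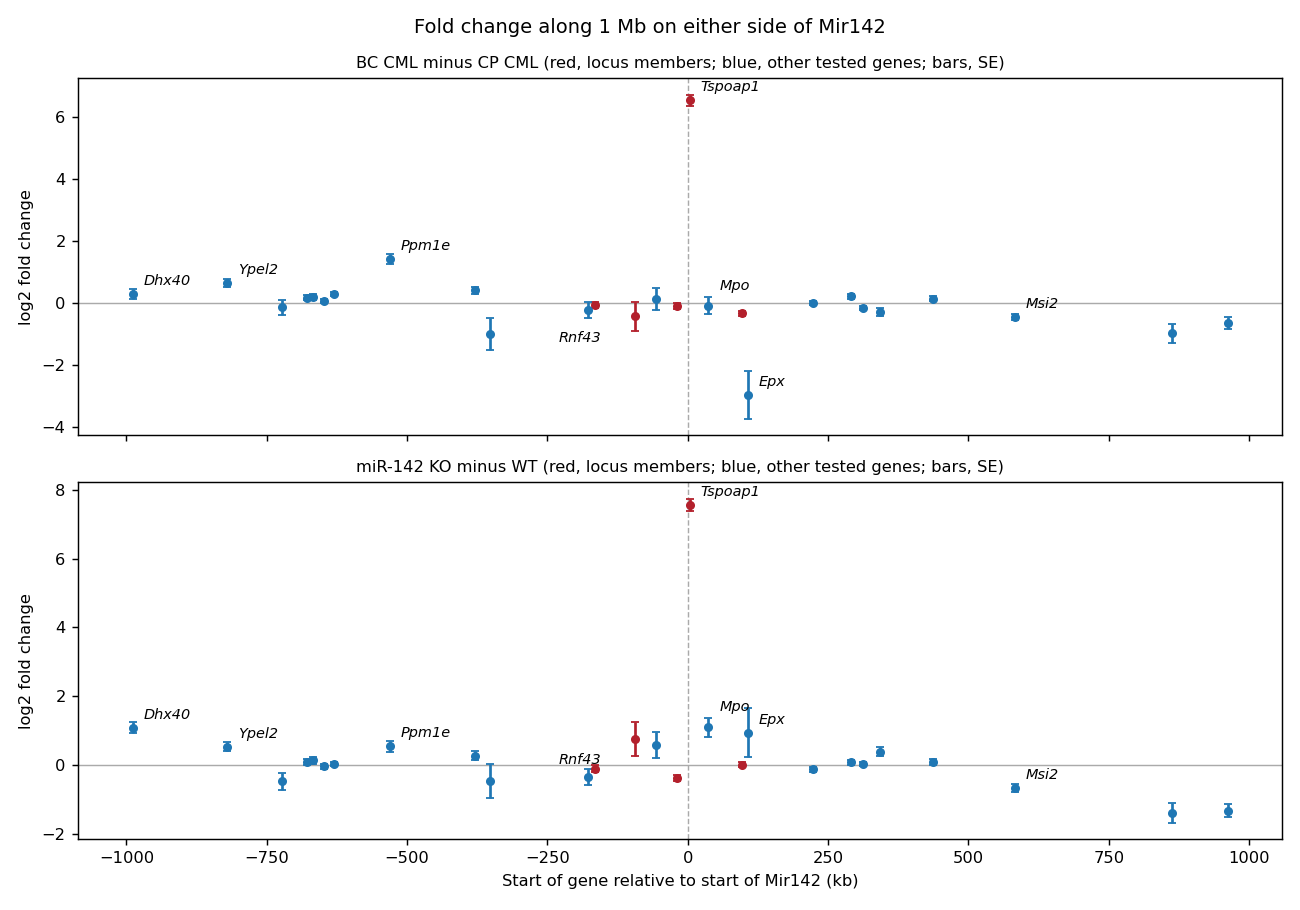
Log2 fold change with SE (y axis) of the tested genes within 1 Mb of Mir142, without Mir142 and Mir142b, against the distance of their start from that of Mir142 (kb, x axis), in BC CML against CP CML (upper) and miR-142 KO against WT (lower); red points are locus members and blue points other genes. Tspoap1, 3.68 kb from Mir142, stands at 6.54 and 7.55, and the other genes shown lie between -2.97 and 1.41.

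Lists of genes that work with the members were counted over the same tests and are read against the share of all tested genes, 38.0% in BC CML against CP CML, 36.3% in miR-142 KO against WT and 45.4% in CP CML against WT. Of 10 genes of TSPO and the RIM-binding protein family, 7 were tested. In BC CML against CP CML 4 of the 7 rose, beside 20.4% of all tested genes, and in miR-142 KO against WT 4 rose, beside 19.9%, with none lower in either. Tspo, the mitochondrial partner for which Tspoap1 is named, rose in both (log2 fold change 0.51, SE 0.12, adjusted p = 0.00211, and 0.76, SE 0.12, adjusted p = 4.196e-05), as did Prkaca, a catalytic subunit of protein kinase A (0.23 and 0.12, adjusted p = 0.0005879 and 0.04368). Bik, a death-promoting BCL2 family gene, rose in both from a low level (0.440 against 0.0999 CPM in BC CML and CP CML, adjusted p = 0.0002372, and 0.451 against 0.218 CPM, adjusted p = 0.02264). Acbd3, another TSPO partner, rose in BC CML (0.19, SE 0.05, adjusted p = 0.005999). In CP CML against WT 4 of the 7 passed, with Tspo higher (0.77, SE 0.12, adjusted p = 3.630e-05) and 3 lower, among them Bik (-1.10, SE 0.43, adjusted p = 0.03838) and Prkaca (-0.18, SE 0.05, adjusted p = 0.003411). The median log2 fold change of the 7 was 0.23 and 0.40, beside 0.01 and 0.01 over all tested genes.

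Of 14 DSIF and elongation genes, 3 passed in BC CML against CP CML (21.4%; 1 higher and 2 lower) and 4 in miR-142 KO against WT (28.6%; 2 higher and 2 lower), shares below those of all tested genes. Ctr9, a subunit of the PAF complex, fell in both (-0.20 and -0.49, adjusted p = 0.00364 and 1.771e-07). Cdk9, the kinase of P-TEFb, fell in BC CML (-0.18, SE 0.04, adjusted p = 0.001641), where Leo1 rose (0.17, SE 0.06, adjusted p = 0.0358) and Cdc73 did not pass (0.12, SE 0.08, adjusted p = 0.2497). In CP CML against WT 10 of the 14 passed (71.4%), 7 of them higher.

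Of 25 genes of the R-spondin, LGR and Wnt receptor group, 19 were tested and 6 passed in each comparison of miR-142 loss (31.6%, below the share of all tested genes), with 2 higher and 4 lower in BC CML and 3 higher and 3 lower in miR-142 KO. Ctnnb1, the gene of beta-catenin, rose in both by 0.81 in BC CML against CP CML (845 ± 28.7 against 482 ± 23.3 CPM, adjusted p = 4.393e-12) and by 0.72 in miR-142 KO against WT (788 ± 43.4 against 480 ± 29.5 CPM, adjusted p = 6.770e-11), with no overlap in either. Znrf3, the paralog of Rnf43, was lower in BC CML (-0.37, SE 0.09, adjusted p = 0.00241), as was the co-receptor Lrp5 (-0.38, SE 0.07, adjusted p = 0.0002396). Lgr5, an R-spondin receptor, was lower in both at a low level (-1.20 and -1.04, adjusted p = 0.01206 and 0.01851).

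Of 13 other myotubularins, 12 were tested. In BC CML against CP CML 5 passed (41.7%), 4 higher and Mtmr12 lower, and in miR-142 KO against WT 4 passed (33.3%), all higher, both near the shares of all tested genes. The 4 that rose were Mtmr2, Mtmr9, Mtmr10 and Mtmr14 in each. Mtmr9 rose by 0.51 in BC CML (SE 0.05, adjusted p = 8.833e-08) and by 0.58 in miR-142 KO (SE 0.05, adjusted p = 1.335e-08), with no overlap in either. In the same order, Mtmr2 rose by 0.21 and 0.39 (adjusted p = 0.00266 and 3.861e-06), Mtmr10 by 0.34 and 0.45 (adjusted p = 0.0005986 and 3.547e-05) and Mtmr14 by 0.42 and 0.30 (adjusted p = 0.0004065 and 0.006887).

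Of 16 genes of the ciliary transition zone around Mks1, 7 passed in each comparison of miR-142 loss (43.8%, near the share of all tested genes), 4 higher and 3 lower in BC CML and 3 higher and 4 lower in miR-142 KO. Cc2d2a fell in both (-0.92 and -0.61, adjusted p = 0.0001587 and 0.005579), and Ahi1 and Rpgrip1l rose in BC CML (0.80 and 0.42, adjusted p = 2.280e-07 and 0.0001302). In CP CML against WT 9 of the 16 passed (56.3%), all lower, where 22.9% of all tested genes were lower. Of 4 heat shock factors other than Hsf5, 3 were tested, and Hsf2 was lower in miR-142 KO compared with WT (-0.21, SE 0.08, adjusted p = 0.03458). In BC CML against CP CML, Hsf1 was at 0.02 (adjusted p = 0.802), Hsf2 at -0.08 (adjusted p = 0.4324) and Hsf4 at 0.42 (adjusted p = 0.3959).

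Of 20 genes that process or load microRNAs, 18 were tested, and 5 passed in BC CML against CP CML (27.8%; 1 higher and 4 lower) and 3, all lower, in miR-142 KO against WT (16.7%), shares below those of all tested genes. Ago1, an Argonaute protein, fell in both (-0.30 and -0.34, adjusted p = 0.001018 and 0.0003243), as did Zcchc11, a terminal uridylyl transferase (-0.32 and -0.21, adjusted p = 0.001466 and 0.02771). Parn, a poly(A) ribonuclease, fell in BC CML (-0.23, SE 0.05, adjusted p = 0.001081) and Prkra rose (0.22, SE 0.05, adjusted p = 0.00161). In CP CML against WT 11 of the 18 passed (61.1%), 3 higher and 8 lower.

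The genes whose pattern was most like that of Tspoap1 were found by Pearson's r of log2 CPM over the 24 libraries among the 12268 genes whose mean reached 1 CPM. The 24 libraries fall into 12 with miR-142 and 12 without it, so this r reads mainly the step between them. The highest were Rcn1, Tsen34, Bod1, Tmem59 and Crtap (r of 0.977 to 0.984), which were higher without miR-142, and the lowest after Mir142 (-0.991) were Dync2h1, Emcn, Hnf4a and Fcrl1 (-0.958 to -0.947). Rcn1, for example, stood at 103 CPM in WT and 106 in CP CML, 210 in miR-142 KO and 215 in BC CML, and Emcn, the endomucin gene, at 28.9, 17.0, 3.20 and 2.92 CPM. Within the 12 libraries with miR-142, r of Tspoap1 with these 10 genes ran from -0.964 (Emcn) to 0.137, and within the 12 without it, for the 9 genes other than Mir142, from -0.472 to 0.694. Mir142 had its highest r with Dpp4, Rassf5, Emcn, Gspt2 and Hnf4a (0.944 to 0.952) and its lowest with Tsen34, Tspoap1, Tmem59, Rcn1 and Crtap (-0.994 to -0.987), and within the 12 libraries with miR-142 these ran from -0.763 to 0.732.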

How the data were processed

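Bulk RNA-seq of LSKs from 24 mice was analysed, 6 per group, whereas the methods of the study give a smaller group size. The values deposited by the authors are raw read counts per gene, made with Trimmomatic and FASTP, STAR 2.6.0 on mm10 and HTSeq 0.11.1 per the labels and the methods of the study. Annotation and strand setting are not given in the sources used here. The deposited table also holds gene length in kilobases, recorded here as a score. Each column was matched to 1 mouse, and no columns of other samples were found.

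All 24 libraries were fitted together in edgeR 4.0.16 (R 4.3.3) with filterByExpr, TMM normalization, quasi-likelihood tests and Benjamini-Hochberg adjustment over 13520 genes (threshold 0.05, common dispersion 0.0284). The script was tested on simulated data. Members, lists and tests were chosen with earlier results of these data known. Comparisons with and without miR-142, and the difference between them, carry no p for members. Named were all members, the nearest 6 tested genes on each side, window genes called in both miR-142 comparisons, the 5 highest and 5 lowest correlations, at most 4 of each list with the lowest p in BC CML against CP CML, and 5 other microRNA rows. Cpa3, Mtmr12, Jchain, Cd79a and the genes ranked above Tspoap1 were named for their values. Alternatives were edgeR's likelihood ratio test, DESeq2 1.42.0, other normalizations and filters, sex as a covariate, the 12 compared libraries alone, other windows and each mouse left out. No pair of libraries agreed within counting noise. Intervals and floors cover counting error only where they come from counts. A list gene that this rule selected is not reported here.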

Additional observations from a re-analysis of the deposited data

Results flagged for a closer look

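Dixon's limit was applied to the gap between the highest or lowest library and its nearest neighbour in groups of 6. It was passed in 5 of 72 groups examined over the locus and neighbouring genes. Chance alone flags about 1 in 20 of independent groups. The groups examined share libraries between genes, so their number cannot be read against that share. Mir142 had a highest WT library of 5.32 CPM (replicate 5). Mpo had a highest WT library of 3790 CPM and a lowest miR-142 KO library of 1397 CPM. Ppm1e had a lowest miR-142 KO library of 6.68 CPM. Sept4 had a highest CP CML library of 3.50 CPM.

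The BCR-ABL log2 fold change of Tspoap1 in LSKs without miR-142 minus that with it was -1.02 (SE 0.20), given without a test. Tspoap1 was higher in CP CML than in WT without overlap of the libraries, and the BC CML and miR-142 KO libraries overlapped. Over 32 alternatives the value of -1.02 ran from -1.16 to -0.95.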

How the results depend on the processing

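The log2 fold change of Tspoap1 stayed between 6.46 and 6.60 in BC CML against CP CML, 7.48 and 7.68 in miR-142 KO against WT, and 0.82 and 1.03 in CP CML against WT over 33 alternatives each. For Rnf43 in CP CML against WT it stayed between 1.41 and 1.85, with adjusted p from 0.002149 to 0.0245. In BC CML against miR-142 KO, 1 member in place of 0 was called with library totals only, and 0 to 1 when single mice were left out. That member was Mks1, called without replicate 3 of miR-142 KO. Mks1 also passed in CP CML against WT without WT replicate 4, miR-142 KO replicate 3 or CP CML replicate 1. The Rnf43 value of 0.76 in miR-142 KO against WT was 0.33 without replicate 2 of miR-142 KO. By construction, a window of 0.5 Mb held fewer called genes (3, 2, 5 and 5 in BC CML against CP CML, miR-142 KO against WT, CP CML against WT and BC CML against miR-142 KO) and a window of 2 Mb more (16, 13, 21 and 13, in the same order). With a prior count of 0.5, 10 of 10 genes most like Tspoap1 and 9 of 10 most like Mir142 remained. No paired analysis was possible because the labels number mice individually and share no replicate numbers between groups. Counts under about 100 per library limit Mir142, Mir142b, Rnf43 and Hsf5.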
